A study of Mus musculus with 9 samples.

Results

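Adra1a, Adra1b, Adrb1 and Adrb3, 4 mouse genes for adrenergic receptors, were examined in liver RNA after the cell cycle gene Ccnd1 had been targeted in hepatocytes of aged mice. The rows of the deposited table with these 4 symbols were taken, 4 of 27179 genes. They were chosen with results of the comparison described here already known: Adrb3 had stood out in it when 1 library was left out. The differences of the 4 genes between the groups are therefore given as values without p-values. The 9 mice were C57BL/6J, labelled wild type and injected at 17 months of age, and a piece of the m-lobe of the liver was taken 3 weeks later for bulk sequencing of poly(A) RNA. All of them, controls included, received AAV8, a virus that readily enters hepatocytes, carrying the nuclease saCas9 under the hepatocyte promoter TBG and a U6-driven guide RNA. The guide was directed at the neutral Rosa26 locus in 4 mice (sgRosa26) and at Ccnd1 in 5 mice (sgCcnd1). Editing was thus directed at hepatocytes, while the RNA came from every cell type of the lobe.

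Adrenergic receptors are the G protein-coupled receptors for adrenaline and noradrenaline, which reach the liver through the blood and through sympathetic nerves. Receptors of the alpha-1 class act through Gq, phospholipase C and calcium, and in rodent hepatocytes they are a classical trigger of glycogen breakdown. Beta receptors act through Gs, cyclic AMP and protein kinase A (PKA), and alpha-2 receptors lower cyclic AMP through Gi. The beta 3 receptor encoded by Adrb3 is best known from fat cells, where it drives lipolysis and heat production.

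The receptors are paralogs, so the coding sequences were compared first, to show how far a read could be shared between them. Among the 6 pairs of the 4 genes, the longest run of identical bases was 30 in Adrb1 and Adrb3 and between 11 and 17 in the other pairs. For each class, the 60 coding bases around the longest run are shown 5′ to 3′ on the coding strand of GRCm38, with the shared run in capitals.
Adrb3: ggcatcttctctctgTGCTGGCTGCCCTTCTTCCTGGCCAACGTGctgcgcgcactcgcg
Adrb1: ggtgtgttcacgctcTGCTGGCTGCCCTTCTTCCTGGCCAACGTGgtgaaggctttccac
Adra1b: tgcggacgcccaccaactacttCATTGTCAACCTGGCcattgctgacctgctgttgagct
Adra1a: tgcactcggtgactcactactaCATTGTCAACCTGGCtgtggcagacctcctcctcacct
The Adrb3 stretch lies at chr8:27227475-27227534 on the minus strand and the Adrb1 stretch at chr19:56723329-56723388 on the plus strand. The Adra1b stretch lies at chr11:43835803-43835862 on the minus strand and the Adra1a stretch at chr14:66637747-66637806 on the plus strand. In these windows 45 of 60 bases matched between Adrb3 and Adrb1, and 42 of 60 between Adra1b and Adra1a.

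In GENCODE's annotation of GRCm38, Adrb3 (Entrez 11556) spans 27225776 to 27250616 of chromosome 8, with 5 annotated transcripts, of which the longest has 4 exons. An antisense gene, Gm45470, overlaps exons of Adrb3 on the other strand. The use of strand in counting is not given in the sources used here, so reads of the antisense gene cannot be told apart from those of Adrb3. No other annotated gene overlaps Adra1a (Entrez 11549, chromosome 14), Adra1b (Entrez 11548, chromosome 11) or Adrb1 (Entrez 11554, chromosome 19). The table gives 1 value per gene, so splice forms were not separated.

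The libraries held between 10.8 M and 20.2 M (mega) reads assigned to genes. Letters name them here in column order, with A to D given to sgRosa26 and the letters E to I to sgCcnd1. Ccnd1 had 684, 800, 625 and 867 normalized counts in A to D and 428, 347, 370, 339 and 325 in E to I, so every sgCcnd1 library was below every control. Its mean was 48.6% of the control mean (log2 fold change -1.03, limma adjusted p = 0.0116), and it was no longer called in fits without B, D, F, H or I. All 8 hepatocyte markers examined had reads in all 9 libraries. Library H stands apart: Ddx3y, a Y-linked gene, had 2.00 normalized counts there and 810 to 1154 in the other 8. It was kept, and the values without it are given where they matter.

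Among the alpha-1 receptors, Adra1b, the form known as the main one of rodent hepatocytes, had 1332, 2027, 1832 and 2003 normalized counts in sgRosa26. In sgCcnd1 it had 1773, 1974, 1742, 1605 and 1531. Library A was the lowest of all 9, and every sgCcnd1 value lay within the range of the controls. The means were 1798 ± 323 (SD, n = 4) and 1725 ± 171 (SD, n = 5), and the fitted log2 fold change was -0.05 (SE 0.13). The coefficient of variation between mice was 18.0% in sgRosa26, where counting alone would give 2.32%, and 9.89% in sgCcnd1, where it would give 2.36%. Without library A, the sgRosa26 value was 5.44%.

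Adra1a, the other alpha-1 receptor here, had 111, 70.1, 70.4 and 76.7 normalized counts in sgRosa26 and 77.0, 88.6, 108, 59.97 and 128 in sgCcnd1. The groups overlapped, with library I the highest and H the lowest, both in sgCcnd1. The means were 82.0 ± 19.4 (SD, n = 4) and 92.2 ± 26.4 (SD, n = 5). The fitted log2 fold change was 0.15 (SE 0.21). Without library I it was 0.02, without library H it was 0.29, and without library A it was 0.30.

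Adrb3 had 236, 245, 284 and 302 normalized counts in sgRosa26. In sgCcnd1 it had 266, 143, 144, 137 and 128. Libraries F to I lay close together and below every control, whereas library E lay inside the control range, so the groups overlapped through 1 library. The means were 267 ± 31.4 (SD, n = 4) and 164 ± 57.7 (SD, n = 5), 61.3% of the control mean, and the fitted log2 fold change was -0.75 (SE 0.19). Library E stood at 99.7% of the control mean, and the other 4 averaged 138 ± 7.504 (SD, n = 4), 51.7% of it. Without E the log2 fold change was -0.94, and without H it was -0.70.

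The reads behind these values were 192, 280, 303 and 311 in A to D and 349, 160, 147, 137 and 90 in E to I. Summed, this was 17.6 RPM (reads for each M assigned reads) in sgRosa26 (95% exact Poisson interval 16.6 to 18.7) and 10.9 in sgCcnd1 (10.2 to 11.6), intervals that cover counting error only. In sgRosa26 the coefficient of variation of Adrb3 was 11.7% against 6.07% from counting. In sgCcnd1 it was 35.2% against 7.52%, and without library E it was 5.44% against 8.65%.

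**Figure D1:**
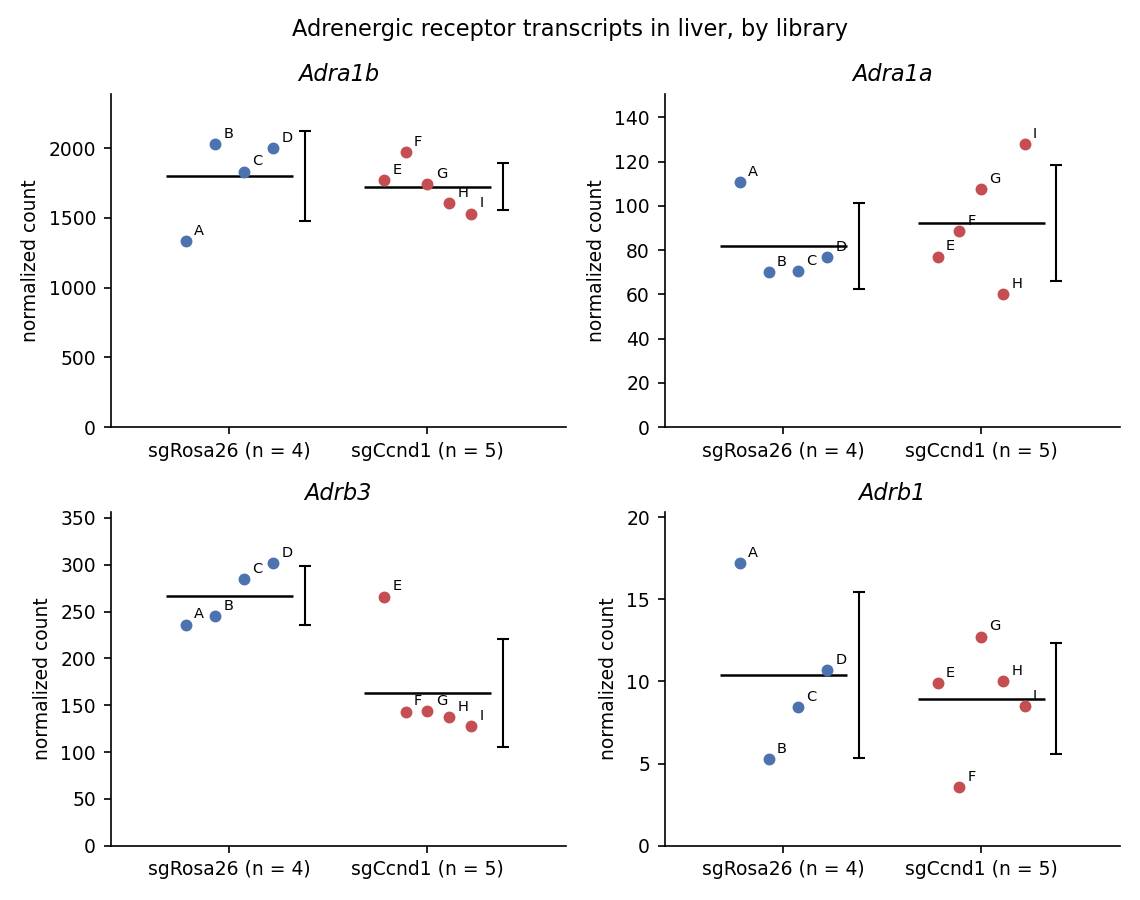
Normalized counts (vertical axes, linear, from 0) of Adra1b, Adra1a, Adrb3 and Adrb1 in each library, with letters naming libraries, horizontal lines the group means and bars 1 SD (n = 4 sgRosa26, n = 5 sgCcnd1). In Adrb3, libraries F to I sit between 128 and 144, below the lowest control at 236, while E sits at 266. In the other 3 genes the groups overlap broadly.

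Adrb1, the beta 1 receptor best known from the heart, was close to the limit of detection. It had 17.2, 5.26, 8.45 and 10.7 normalized counts in sgRosa26 and 9.91, 3.58, 12.7, 10.0 and 8.52 in sgCcnd1. The groups overlapped between 5.26 and 12.7, with library A above that stretch and library F below it. The means were 10.4 ± 5.06 (SD, n = 4) and 8.95 ± 3.37 (SD, n = 5). These rest on 4 to 14 reads per library. The summed level was 0.650 RPM in sgRosa26 (95% exact Poisson interval 0.464 to 0.885) and 0.566 in sgCcnd1 (0.414 to 0.755). These intervals overlapped, and they cover counting error only. The coefficient of variation between mice was 48.6% in sgRosa26, where counting alone would give 31.6%. In sgCcnd1 it was 37.6% against 33.0%. With a mean of 9.59 normalized counts, Adrb1 missed the minimum mean of 10 that was set for testing. Without that minimum its log2 fold change was -0.18 (SE 0.39), and it was -0.43 without B and 0.08 without F.

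Of the 4 genes 3 entered the fit across all genes, by limma on log2(normalized count + 1), and 0 of these 3 were called at an adjusted p under 0.05, where 0.0077% of all 12993 genes were called lower and 0.0% higher. With edgeR and DESeq2 on the recovered reads 0 of 3 were called too. Of all genes tested, edgeR called 0.0077%. Of the 11983 genes with a DESeq2 adjusted p, DESeq2 called 0.634% lower and 0.976% in either direction. The groups overlapped in all 4 genes, and they did not overlap in 3.89% of all genes tested. Without library E, limma called 1 of 3, Adrb3, where 0.0154% of genes were called lower. That share is 2 genes, Adrb3 itself and the targeted gene Ccnd1. The fit without E is the one in which Adrb3 had stood out before it was chosen, so nothing is read from it. As the genes were chosen from this comparison, the counts only describe them.

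The order of the receptors is given as a description, with no test, since the genes were chosen with these data known and the order was read from the same libraries. Levels were compared per kilobase of the longest transcript, over 5 receptor genes with reads in all 9 libraries. Adra1b was the highest at 528 ± 70.5 normalized counts per kb (SD, n = 9), followed by Adrb3 at 74.97 ± 25.3. Adra2b, an alpha-2 receptor, was at 20.8 ± 5.71, Adra1a at 20.5 ± 5.31 and Adrb1 at 3.25 ± 1.35 (SD, n = 9 each). Among these 5, Adra1b was the highest and Adrb3 the next in each of the 9 libraries.

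Neighbours in this order were compared within each library. Adra1b exceeded Adrb3 by 2.88 ± 0.49 on the log2 scale of levels per kb, and Adrb3 exceeded Adra2b by 1.81 ± 0.49 (SD, n = 9). Adra1a exceeded Adrb1 by 2.74 ± 0.67 (SD, n = 9). In each of these 3 pairs the first gene was higher in 9 of 9 libraries. Adra2b and Adra1a did not differ beyond their spread, with a mean log2 ratio of 0.03 ± 0.55 and Adra2b higher in 5 of 9 libraries. The place of Adra1a depended on which bases were counted as its length. With the union of all annotated exons, 8728 bases in place of 4282 for Adra1a, it stood below Adra2b by 1.05 on the log2 scale. It then exceeded Adrb1 by 1.91.

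**Figure D2:**
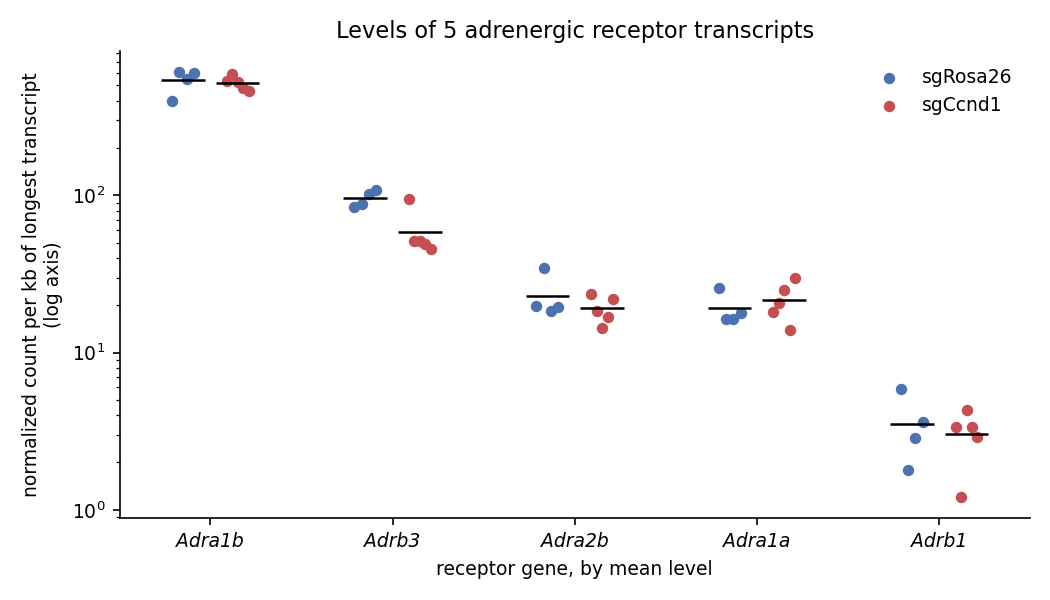
Normalized counts per kb of the longest transcript (vertical log axis) for 5 receptor genes with reads in every library, ordered by mean level; points are libraries and lines the group means. Adra1b lies between 400 and 609 and Adrb3 between 45.7 and 108, with library E of sgCcnd1 among the control points.

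Adra1b made up 78.9% ± 2.96 of the summed level per kb of these 5 receptors in sgRosa26 (SD, n = 4) and 83.5% ± 2.95 in sgCcnd1 (SD, n = 5). The share of Adrb3 was 14.2% ± 1.72 and 9.36% ± 2.71.

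Adra1d, Adra2a and Adra2c were at or near the floor. Adra1d had 0 reads in sgRosa26, where a floor of 3 reads in the whole group corresponds to 0.0488 RPM (upper 95% exact Poisson bound 0.0600), and 1 read in sgCcnd1. Adra2a had 0 and 2 reads, and Adra2c 3 and 3. Adra2b was the only alpha-2 receptor with reads in every library. It had 79.9, 138, 74.1 and 77.7 normalized counts in sgRosa26 and 95.3, 74.3, 57.8, 68.0 and 88.0 in sgCcnd1 (log2 fold change -0.24, limma adjusted p = 0.686). Without library B, the highest of the 9, the log2 fold change was -0.03.

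Because fat cells are the known site of Adrb3, markers of adipocytes were read beside it. Lep and Ucp1 had 0 reads in all 9 libraries, Adipoq was at most 0.971 normalized counts and Plin1 at most 0.9996, in libraries where Adrb3 was between 128 and 302. Of the 8 adipocyte markers 3 had reads in all libraries: Cidec and Fabp4, which other liver cells also express, and Cfd. Cfd had 2.46 to 21.9 normalized counts in sgRosa26 and 3.92 to 21.99 in sgCcnd1. Retn had reads in libraries D and F only, at most 1.94 normalized counts. The summed level of the 8 markers was 112 to 590 normalized counts in sgRosa26 and 224 to 507 in sgCcnd1, with the groups overlapping. The part of adipocytes in the Adrb3 values was not tested.

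Markers of lymphocytes split the sgCcnd1 libraries in the same way as Adrb3. The summed level of 7 T, NK and B cell markers was 144, 280, 267 and 209 normalized counts in A to D, 257 in E and 100, 126, 118 and 88.0 in F to I. As with Adrb3, library E lay in the control range and the other 4 lay below every control. All 7 markers had a log2 fold change below 0, with a median of -0.65, and 0 of 7 were called by limma. In bulk tissue, fewer cells of a type and less RNA per cell cannot be told apart. The part of lymphocytes in the Adrb3 values was not tested.

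Lymphocyte markers were not alone in this split. Single genes with F to I outside the control range on one side and E inside it numbered 3 of 7 lymphocyte markers, 4 of 12 clock genes and 3 of 8 stellate cell markers, where 3.44% of all genes tested had that pattern. The pattern was defined after these values were seen. There was 1 among 7 cholangiocyte markers and 1 among 6 adrenal and gallbladder markers, and 0 in the other 6 lists. Of 12 clock genes, which follow the daily rhythm, 8 had a log2 fold change above 0 and 0 were called, with a median of 0.34. Dbp, a rhythmic transcription factor, had 130, 99.0, 348 and 234 normalized counts in A to D, 179 in E and 541, 422, 409 and 488 in F to I. Bmal1, a core activator of the clock, had 293, 411, 306 and 374 in A to D, 342 in E and 215, 262, 257 and 207 in F to I. Libraries F to I thus lay outside the control range, above it for Dbp and below it for Bmal1, with E inside it. Both were named after their values were seen, from the 4 with that pattern. The summed level of the 12 was 5190 to 7632 in sgRosa26, 6516 in E and 7557 to 8842 in F to I, with F inside the control range. The 6 markers of adrenal medulla and gallbladder summed to 0.939 to 6.15 normalized counts in sgRosa26, 4.57 in E and at most 0.895 in F to I, a few reads per library. The part of these lists in the Adrb3 values was not tested.

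The genes whose profile over the 9 libraries was nearest to that of Adrb3 were found by the root-mean-square difference of mean-centred log2 values among 12992 genes. Plcb2, a phospholipase C of blood cells, was the nearest at 0.18. Klhdc8a followed at 0.19, and Oas3, an interferon-induced antiviral enzyme, at 0.20. Cd180, a Toll-like receptor relative of B cells and macrophages, and Itgal, the alpha chain of a leukocyte integrin, were both at 0.20. For scale, the root-mean-square deviation of Adrb3 from its own mean was 0.48, and the median difference over all genes was 0.53. Itgal had 203, 200, 228 and 223 normalized counts in A to D, 211 in E and 142, 158, 150 and 126 in F to I. Since the profiles contain the group difference, the difference of these 5 genes between groups is part of how they were found.

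**Figure D3:**
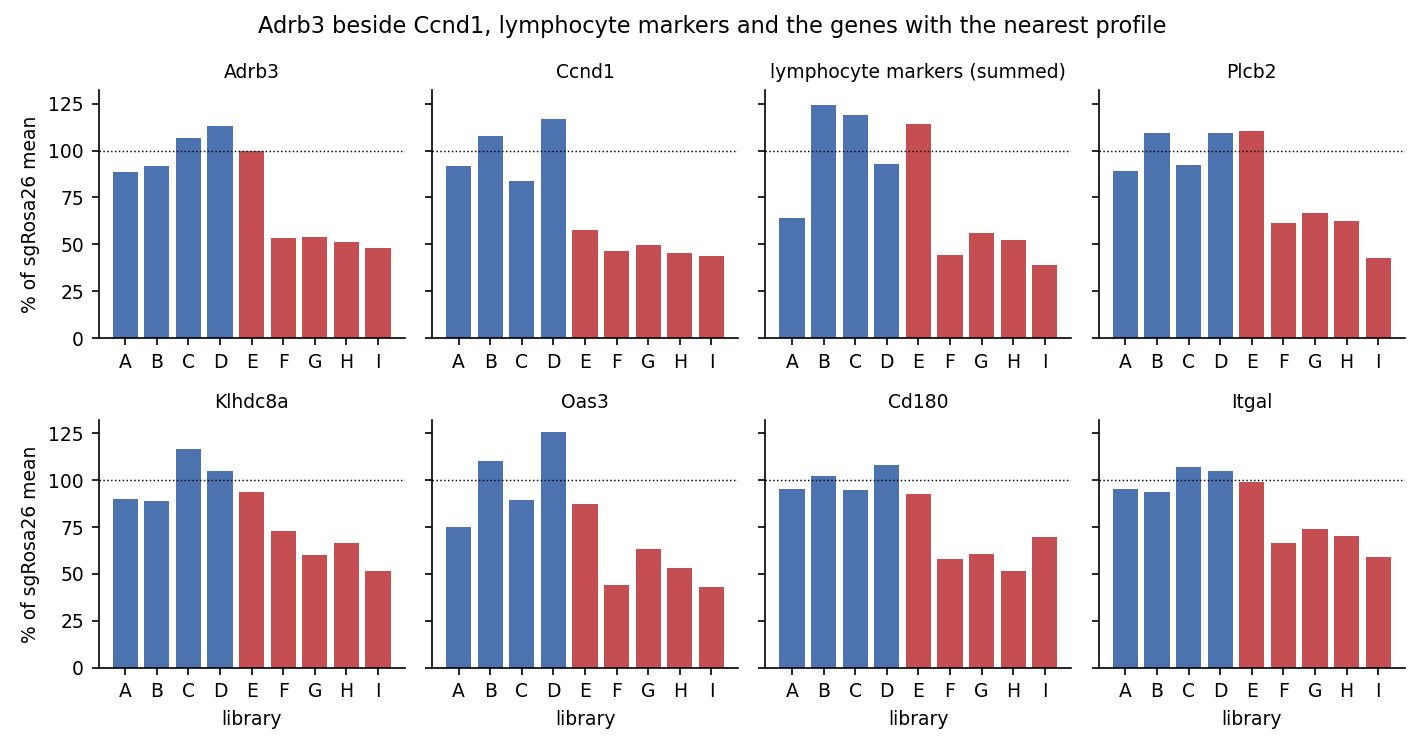
Level in each library as a percentage of the sgRosa26 mean (vertical axes from 0; dotted line 100%; blue sgRosa26, red sgCcnd1) for Adrb3, Ccnd1, the summed lymphocyte markers and the 5 genes nearest to Adrb3 in profile. Library E stands at 99.7% for Adrb3, 114% for the lymphocyte markers and 57.6% for Ccnd1.

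Within sgCcnd1, Adrb3 and Ccnd1 put the libraries in one order, E, G, F, H and I from high to low. The Ccnd1 values in that order were 428, 370, 347, 339 and 325 normalized counts, and those of Adrb3 were 266, 144, 143, 137 and 128. Library E was the highest in both genes, but Adrb3 had stood out through E before it was chosen, so nothing is read from this. The other 4 averaged 138 ± 7.504 for Adrb3 and 345 ± 18.9 for Ccnd1 (SD, n = 4). The order of those 4 in Adrb3 is within counting error: G and F differ by less than 1 normalized count, on 147 and 160 reads. The 4 controls were not in one order: D was the highest in both genes, but C was the lowest in Ccnd1 and A the lowest in Adrb3. This comparison of Adrb3 with Ccnd1 was not among the planned ones, and with 5 libraries no correlation was computed.

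Genes that start within 100 kb of the start of the longest Adrb3 transcript were read for a change across the locus, and 3 of them were matched in the table. Eif4ebp1, which encodes an inhibitor of translation initiation and starts 30.7 kb away, had 535 ± 68.0 normalized counts in sgRosa26 (SD, n = 4) and 599 ± 105 in sgCcnd1 (SD, n = 5). Rab11fip1, at 54.9 kb, had 204 ± 11.9 and 231 ± 39.7. Their log2 fold changes were 0.15 (limma adjusted p = 0.703) and 0.17 (limma adjusted p = 0.644). Got1l1, at 5.8 kb, had 0, 2.63, 1.88 and 4.86 normalized counts in A to D, 1.52 in E and 0 in F to I, levels too low to be tested.

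The other genes of adrenergic signalling were read from 11 lists, 132 genes in all with each counted once, of which 112 passed the minimum mean. In limma 0 of 112 were called in either direction, beside 0.0077% of all genes tested. At an unadjusted p under 0.05 there were 11 higher and 7 lower, where 11.0% of all genes lay under that level. Their median log2 fold change was -0.0050, beside 0.014 over all 12993 genes. The edgeR model called 0 of them, beside 0.0077% of all genes tested. DESeq2 called 2, Crem and Grk3 (DESeq2 adjusted p = 0.0499 for each), beside 0.976% of the 11983 genes with a DESeq2 adjusted p. Some of the 112, such as Pkib and Fos, had no DESeq2 adjusted p. Without library H, DESeq2 called 0 of the 112, with an adjusted p of 0.174 for Crem and 0.185 for Grk3.

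The Gs and Gi proteins and adenylyl cyclases, which make or hold back cyclic AMP, gave 0 calls among 12 genes, with 6 above and 6 below 0. Gnas, which encodes the Gs subunit that beta receptors use, was the highest of them at 1857 ± 240 normalized counts per kb in sgRosa26 (SD, n = 4). The smallest p in this list belonged to Gnai2 (log2 fold change -0.18, limma adjusted p = 0.436) and Adcy7 (-0.47, limma adjusted p = 0.448). At an unadjusted p under 0.05 this list had 2 genes lower, Gnai2 and Adcy7, and 1 higher, where 11.0% of all genes lay under that level. Of 11 genes of PKA, its inhibitors and its anchors, 0 were called, and the inhibitors Pkig (-0.28, limma adjusted p = 0.356) and Pkib (-0.66, limma adjusted p = 0.489, and -0.42 without library G) had the smallest p. Prkar1a, a regulatory subunit of PKA, was the most abundant of that list at 781 ± 32.9 normalized counts per kb in sgRosa26 (SD, n = 4).

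Phosphodiesterases end the signal by breaking down cyclic AMP, and 0 of 10 tested were called. Pde3b, the most abundant of them, had 1234, 1007, 1291 and 1179 normalized counts in sgRosa26 and 1304, 1290, 1354, 1386 and 1609 in sgCcnd1. It was above every control in 4 of 5 sgCcnd1 libraries (log2 fold change 0.24, limma adjusted p = 0.389). Pde4a stood at -0.22 on the log2 scale (limma adjusted p = 0.556), and at -0.14 without library H.

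On the Gq side, which alpha-1 receptors use, 0 of 17 genes were called, with 6 above and 11 below 0. Itpr1, a calcium channel opened by inositol trisphosphate, was at 0.32 (limma adjusted p = 0.378) and Plcb2 at -0.59 (limma adjusted p = 0.382). Calm2, for the calcium sensor calmodulin, led this list at 1659 ± 51.5 normalized counts per kb in sgRosa26 (SD, n = 4). Among 10 genes of glycogen metabolism 0 were called. Pygl, the liver glycogen phosphorylase that both receptor classes activate, had 8086 ± 932 normalized counts in sgRosa26 (SD, n = 4) and 10203 ± 879 in sgCcnd1 (SD, n = 5), with 4 of 5 libraries above every control. Its log2 fold change was 0.34 (limma adjusted p = 0.296), and that of Gys2, the liver glycogen synthase, was 0.36 (limma adjusted p = 0.337).

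Desensitization genes, which switch receptors off, gave 0 calls among 12. Grk3, a kinase that phosphorylates activated receptors, had 242, 167, 163 and 167 normalized counts in sgRosa26 and 160, 118, 81.3, 61.0 and 71.0 in sgCcnd1. The groups did not overlap, as in 1.97% of all genes tested for that direction (log2 fold change -0.97, limma adjusted p = 0.253). Library E was again the highest of its group, just below the lowest control. Rgs2, which shortens Gq signals, was at -0.54 (limma adjusted p = 0.344), and Arrdc3, an arrestin relative, was the most abundant at 868 ± 401 normalized counts per kb in sgRosa26 (SD, n = 4).

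Among 7 genes of catecholamine handling 0 were called. Sult1a1, a sulfotransferase of phenols, was the most abundant of these at 3459 ± 646 normalized counts per kb in sgRosa26 (SD, n = 4). The monoamine oxidases, which degrade catecholamines by oxidation, had the smallest p: Maoa at 0.35 (limma adjusted p = 0.305) and Maob at 0.26 (limma adjusted p = 0.373). Th, for the first step of catecholamine synthesis, and Pnmt, which makes adrenaline, had 0 reads in all libraries. Dbh, which makes noradrenaline, had 0.979 normalized counts in library G and 0 in the others.

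Downstream of cyclic AMP, 0 of 10 genes for CREB (the cyclic AMP response factor), its relatives and coactivators were called. Crem, a CREB relative that is itself induced by cyclic AMP, had 291, 263, 295 and 325 normalized counts in sgRosa26 and 356, 406, 402, 522 and 358 in sgCcnd1. All 5 sgCcnd1 libraries were above every control, and library E was the lowest of them (log2 fold change 0.47, limma adjusted p = 0.253). Creb1 was also above every control in 5 of 5 libraries (0.25, limma adjusted p = 0.354). Groups did not overlap in that direction in 1.92% of all genes tested. Creb3l3, a liver factor of this family, was the most abundant at 1220 ± 171 normalized counts per kb in sgRosa26 (SD, n = 4).

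Of 12 cyclic AMP-responsive target genes 0 were called, with 6 above and 6 below 0. Nr4a1 and Fos, rapidly induced transcription factors, had the smallest p at -0.69 (limma adjusted p = 0.437) and -0.68 (limma adjusted p = 0.474). Pck1, a gluconeogenic enzyme and a classical target, led the list at 9030 ± 2566 normalized counts per kb in sgRosa26 (SD, n = 4). Among 10 other G protein-coupled receptors, 0 were called. Gcgr, the glucagon receptor, was the most abundant at 1445 ± 214 normalized counts per kb in sgRosa26 (SD, n = 4). P2ry1, a receptor for extracellular nucleotides, was at 0.44 (limma adjusted p = 0.334) and Avpr1a, the vasopressin receptor of liver, at -0.32 (limma adjusted p = 0.486).

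**Figure D4:**
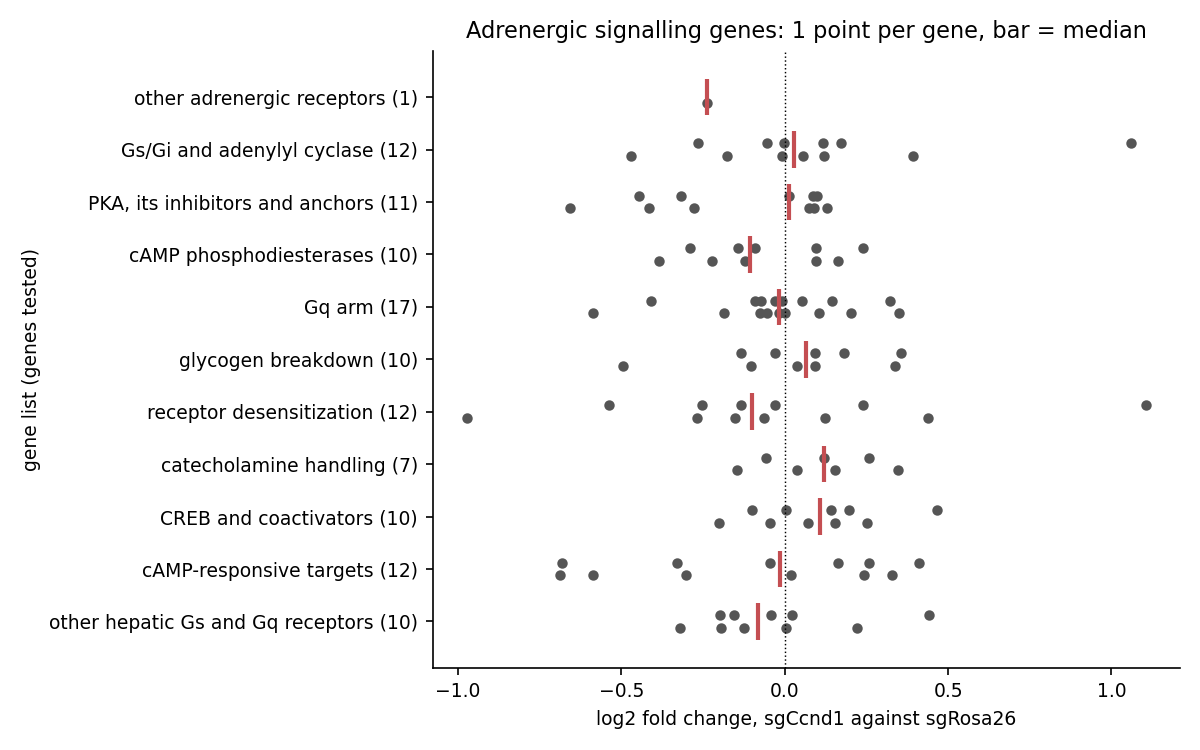
Log2 fold change of sgCcnd1 against sgRosa26 (horizontal axis) for each tested gene of the 11 adrenergic signalling lists (vertical axis, number of genes tested in brackets); points are genes and red bars list medians. List medians lie between -0.24 (1 gene, Adra2b) and 0.12, and 0 of the genes were called by limma.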

How the data were processed

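Poly(A) RNA from liver pieces of 9 mice was sequenced in bulk. The deposited values are a never-negative signal, normalized counts per Entrez gene. Trim Galore 0.6.7, HISAT2 2.2.1, featureCounts 2.0.3 and DESeq2 2.11.40.8 are named, with builds mm10 and GRCm38, per the submitters' processing notes; their settings and the use of strand are not given in the sources used here. In every library 100% of values were whole multiples (tolerance 0.01 reads) of the value of 1 read, so the authors' signal can be turned back into reads with 1 factor for each library. In library H that value is too near 1 for an automatic check. Columns name a guide target and an animal, which no label repeats, so libraries have a group but no replicate number. P-values measure the spread between these samples.

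From the deposited values, limma 3.58.1 in R 4.3.3 (lmFit, eBayes with trend, two-sided) was fitted to log2(normalized count + 1) for 12993 genes with a mean of at least 10; fold changes are on this scale and understate those of low genes. P-values were adjusted by Benjamini-Hochberg over all genes, threshold 0.05. edgeR 4.0.16 and DESeq2 1.42.0 were run on recovered reads as alternatives. The fit was tested on simulated data. Lengths and coordinates came from GENCODE M21. Named by rule were the 8 receptor genes listed, Ccnd1, the 2 genes of each list with the smallest p and its most abundant gene, the 5 nearest profiles and neighbours within 100 kb. Outside this rule, Ddx3y, Th, Pnmt, Dbh and single marker genes were named, with Dbp and Bmal1 named after their values were seen. The sign-flip test planned for the order of receptor levels is not reported, because the order was read from the same libraries. Of the receptors and lists, 2 genes are not reported here. Receptors and lists were chosen with earlier results of these data known. Other marker lists gave these median log2 fold changes: hepatocyte 0.10, cholangiocyte -0.31, stellate -0.35, smooth muscle -0.17, endothelial -0.07, Kupffer -0.03, nerve 0.02 (1 gene tested), clock 0.34; of adrenal and gallbladder markers 0 passed the minimum mean. Figures were drawn with matplotlib 3.10.9.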

Additional observations from a re-analysis of the deposited data

Results flagged for a closer look

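The highest and lowest library of each group were compared with the rest for some of the genes named here, 52 groups in all. In 5 of them 1 library lay far off, Adrb3 included, which had been chosen for such a pattern, so the number is no evidence. Chance marks about 2.6 in 52 such groups. Adrb3 was at 266 normalized counts in library E of sgCcnd1, against 128 to 144 in the rest of that group. Adra1a was at 111 in library A of sgRosa26, against 70.1 to 76.7 in the other controls. Adra2b was at 138 in library B of sgRosa26, against 74.1 to 79.9. Grk3 was at 242 in library A of sgRosa26, against 163 to 167. Maoa was at 234 in library D of sgRosa26, against 207 to 209.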

How the results depend on the processing

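No paired analysis was possible because replicate numbers are missing from the table's columns. The log2 fold change of Adrb3 was between -0.94 (without E) and -0.64 (edgeR without H) in all 20 alternatives, and those of Adra1a, Adra1b and Adrb1 moved by less than the spread between replicates. Adra1b changed sign (-0.18 without A, 0.02 without B). Adrb1 passed the minimum mean only without B or F. Where limma called 1 gene lower and 0 higher, DESeq2 called 76 and 41, or 25 and 16 once H was dropped. Quantile normalization gave 2 genes lower, edgeR without H gave 0, and fits leaving out a library gave 0 to 2. The count models without H and the coefficients of variation without 1 library were chosen after seeing the data. DESeq2 called 2 pathway genes where limma called 0, and 0 once H was dropped. The cause was not tested. With union exon length, Adra2b exceeded Adra1a by 1.05 (log2 per kb), since Adra1a is then longer. In sgRosa26 alone, the pairs Adra1b and Adrb3 (2.49), Adrb3 and Adra2b (2.10) and Adra1a and Adrb1 (2.54) kept their direction. Adra2b over Adra1a ranged from -0.10 to 0.13 in fits leaving out a library. Adrb1, at 4 to 14 reads per library, is limited by depth.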
